A study of Drosophila melanogaster with 4 samples.

Results

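The 9 circadian clock genes described here are Clk, cyc, per, tim, vri, Pdp1, cwo, cry and to, chosen by their FlyBase symbols and matched to the gene identifiers of the deposited tables. All 9 were found among the 12073 gene identifiers listed in any library, and all 9 reached 1 RPKM (reads per kilobase of gene length per 1e6 reads) in every library. The samples were whole female Drosophila melanogaster adults of 1 to 3 days, extracted 5 flies at a time, in 4 groups of 1 library each. Mutant flies were w1118 and carried kdm5 alleles K6801/10424. The kdm5 product is a histone demethylase that removes methyl groups from lysine 4 of histone H3. Wild type flies were w1118 without these alleles, so both genotypes share the white-eyed w1118 background. Flies of each genotype took 5% sucrose with 20 mM paraquat, a herbicide that generates superoxide inside cells, or 5% sucrose alone (control), for 6 hours. Flies were kept on a 12-hour light and dark cycle, and the time of day at collection is not given in the sources used here. Many of these transcripts rise and fall with the time of day, so a difference in collection time and a difference by genotype or paraquat cannot be told apart.

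In the fly clock the proteins CLK and CYC bind together to E-box sequences and switch on per, tim, vri, Pdp1 and cwo. PER and TIM then enter the nucleus and shut CLK and CYC off, while VRI represses and PDP1 activates the Clk gene in a linked loop, and CWO is a repressor that competes at E-boxes. CRY is a blue light receptor that resets the loop through TIM, and to (takeout) is an output gene tied to feeding. Messages of per, tim, vri, Pdp1 and cwo peak in fly heads around dusk and early night, those of Clk and cry around dawn, and cyc message does not cycle. Clocks run in brain neurons, photoreceptors, fat body and other tissues, and ovaries carry PER and TIM without a rhythm. In mammals a KDM5 relative binds the CLOCK protein complex and raises transcription of its targets.

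The libraries held 29.1 and 28.3 M uniquely mapped reads (M, 1e6) in mutant flies with paraquat and without it, and 28.9 and 27.9 M in wild type flies with paraquat and without it. Kdm5 stood at 2.03 and 2.06 RPKM in mutant flies with and without paraquat, against 22.5 and 43.4 RPKM in wild type flies with and without paraquat, so some reads of the gene remained in the mutant. Of 8 male marker genes 5 were matched and listed, with at most 12 reads each in any library. Since each group is a single library, differences could not be set against replicate spread, and there are no p-values. The size rule for calling a gene higher or lower was a difference of 1 or more in log2(RPKM + 1), with 1 RPKM or more in either library. Adding 1 RPKM shrinks differences at low levels, so genes of low RPKM needed a larger fold to pass. Each fold is a ratio of RPKM. Its 95% interval, in brackets, covers counting error and not differences between flies.

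Among the 9 genes cyc alone passed the size rule, and it did so in both comparisons that use the wild type control. With median-ratio scaling of the libraries, which sets the typical gene rather than the total equal, cyc passed in the genotype comparison (−1.24) but not with paraquat in wild type (−0.80). That library held the lowest RPKM of the 4 for 7 of the 9 genes (Clk, per, tim, vri, Pdp1, cwo and cry), where 28.3% of 8611 genes had their lowest value there. It held the highest RPKM for cyc, as it did for 52.5% of genes. With median-ratio scaling the wild type control was still lowest for 7 of the 9 genes, beside 39.6% of genes, and highest for 38.4% of genes. The remaining gene, to, was lowest in the mutant control.

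**Figure D1:**
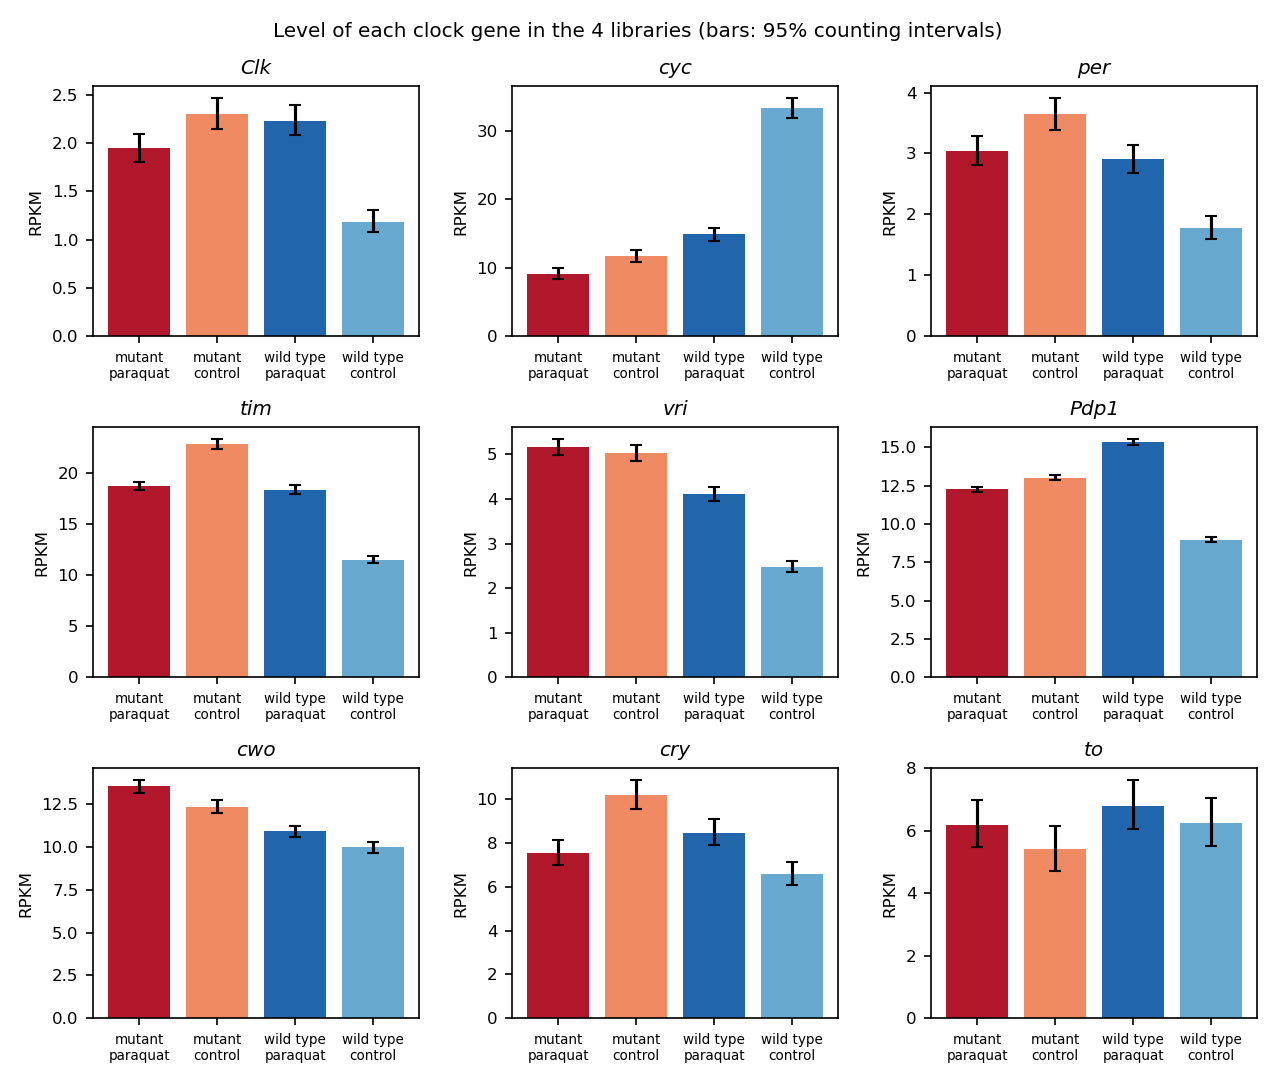
RPKM of each clock gene (vertical axes, from 0) in the mutant paraquat, mutant control, wild type paraquat and wild type control libraries (bars, 1 library each), with 95% Poisson counting intervals as error bars. The wild type control bar is the lowest for 7 of the 9 genes and the highest for cyc, at 33.3 RPKM.

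The genes of the activator pair differed from each other. Clk (FBgn0023076; chromosome 3L, BDGP6 positions 7763233 to 7775603, minus strand) encodes the bHLH-PAS activator CLOCK. It had 1.95 and 2.30 RPKM in mutant flies with and without paraquat, and 2.23 and 1.19 RPKM in wild type flies with and without paraquat. The 3 higher libraries had overlapping counting intervals between neighbours in the order, and the wild type control lay below all of them. Clk was 1.88-fold (1.67 to 2.12) as high with paraquat as without it in wild type, 1.94-fold (1.72 to 2.19) in mutant as in wild type controls, and under the size rule in both, with differences of 0.56 and 0.59 on the log2 scale.

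The partner gene cyc (FBgn0023094; chromosome 3L, 19813770 to 19815938, minus strand), the fly counterpart of BMAL1, ran the other way. It had 9.13 and 11.7 RPKM in mutant flies with and without paraquat, and 14.9 and 33.3 RPKM in wild type flies with and without paraquat. No 2 neighbours in this order had overlapping counting intervals, and 2018 reads in the wild type control stood against 576 to 932 in the other libraries. Paraquat-fed wild type flies were 2.24-fold lower (2.07 to 2.42) than wild type controls, a difference of −1.11, and mutant controls were 2.85-fold lower (2.62 to 3.11) than wild type controls, a difference of −1.44. Both comparisons share the wild type control library. Within the mutant the paraquat difference was −0.32, and between the genotypes under paraquat, where the wild type control plays no part, it was −0.65 (1.63-fold lower, 1.47 to 1.81), so neither passed the rule.

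The repressors per and tim had the same order of libraries. per (FBgn0003068; chromosome X, 2685580 to 2692780, plus strand), which encodes the repressor PERIOD, had 3.04 and 3.64 RPKM in mutant flies with and without paraquat, and 2.91 and 1.77 RPKM in wild type flies with and without paraquat. tim (FBgn0014396; chromosome 2L, 3493986 to 3508119, minus strand), whose product TIMELESS holds PER stable and is destroyed in light, had 18.7 and 22.8 RPKM in mutant flies and 18.3 and 11.5 RPKM in wild type flies, in the same order. Both genes were highest in the mutant control and lowest in the wild type control, and the 2 paraquat libraries between them had overlapping intervals for each gene. Mutant controls were at 2.05-fold (1.81 to 2.33) the wild type level for per and at 1.98-fold (1.92 to 2.06) for tim, with differences of 0.74 and 0.93 that stay inside the rule. With 0.1 RPKM added in place of 1, these differences were 0.997 and 0.983. The tim difference crossed the rule with median-ratio scaling (1.12) and with upper-quartile scaling (1.13).

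The linked-loop genes vri and Pdp1 shared the low wild type control but not the rest of their order. vri (FBgn0016076; chromosome 2L, 5288944 to 5311223, plus strand), a bZIP repressor of Clk, had 5.17 and 5.02 RPKM in mutant flies with and without paraquat, and 4.10 and 2.48 RPKM in wild type flies with and without paraquat. Both mutant libraries lay above both wild type libraries, and the mutant pair had overlapping intervals. Pdp1 (FBgn0016694; chromosome 3L, 7811458 to 7867369, minus strand), a bZIP activator of Clk with other isoforms outside the clock, had 12.3 and 13.0 RPKM in mutant flies and 15.4 and 8.97 RPKM in wild type flies with and without paraquat. Here wild type flies with paraquat were highest. The count is per gene, so the clock isoform of Pdp1 was not separated from the others.

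cwo (FBgn0259938; chromosome 3R, 10388258 to 10400752, plus strand), the E-box repressor CLOCKWORK ORANGE, varied little, with 13.5 and 12.3 RPKM in mutant flies with and without paraquat, and 10.9 and 9.97 RPKM in wild type flies with and without paraquat. Its mutant level stood at nearly the same fold of wild type in both conditions, 1.24-fold under paraquat (1.19 to 1.29) and 1.24-fold in controls (1.18 to 1.29), both under the rule. The light receptor gene cry (FBgn0025680; chromosome 3R, 19212154 to 19215442, plus strand) had 7.55 and 10.2 RPKM in mutant flies and 8.46 and 6.57 RPKM in wild type flies with and without paraquat, so that the mutant control was highest. In BDGP6 cry shares 329 exon bases with a long noncoding RNA on its strand and tim shares 545 with another on the opposite strand, and reads in those bases could belong to either gene. to (FBgn0039298; chromosome 3R, 25240180 to 25241668, plus strand) had 6.19 and 5.41 RPKM in mutant flies and 6.81 and 6.25 RPKM in wild type flies, and each neighbour in its order had an overlapping counting interval.

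The comparison of paraquat with control in wild type asked how the clock genes of an intact fly stand under oxidative stress. Of the 9 genes 0 were called higher and 1, cyc, lower, where 5.21% of 8429 genes tested were called higher and 10.4% lower. The other 8 genes had more RPKM with paraquat than without, as did 36.8% of all genes tested. Their differences ran from 0.11 for to, 0.12 for cwo and 0.32 for cry through 0.49 to 0.63 for per, vri, Clk and tim to 0.71 for Pdp1, which was 1.71-fold (1.68 to 1.75) as high. The median of the 9 was 0.49, beside −0.29 over all genes tested. With the mutant control as baseline instead, which also differs in genotype, 7 of the 9 signs turned, to 0.32 for cyc, −0.03 for Clk, −0.16 for cwo and −0.24 to −0.30 for per, tim, vri and cry, and the median of the 9 was −0.16. Median-ratio scaling moved the median gene by 0.30, after which 884 genes were called higher and 278 lower, against 439 and 879 as reported, and the median of the 9 was 0.72.

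In the mutant the same treatment gave small differences of mixed sign. Of the 9 genes 0 were called, where 0.712% of 8288 genes were called higher and 0.603% lower. More RPKM with paraquat than without was seen for 3 of the 9 and for 37.4% of genes tested. cry stood lowest, at 7.55 RPKM with paraquat against 10.2 RPKM without it (1.35-fold lower, 1.22 to 1.49; difference −0.39), and 5.02% of genes tested had a difference below it. tim differed by −0.27, per by −0.20, Clk by −0.17 and Pdp1 by −0.08, while vri, cwo and to differed by 0.03, 0.12 and 0.17. The median was −0.17, beside −0.05 over all genes.

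Between the genotypes in control flies, the question was how clock genes stand when Kdm5 is low without stress. Again 0 of 9 genes were called higher and cyc alone lower, where 6.55% of 8364 genes were called higher and 5.75% lower. The mutant had more RPKM for 7 of the 9 and for 37.7% of genes tested. The 5 genes whose messages peak around dusk (per, tim, vri, Pdp1 and cwo) had differences of 0.28 to 0.93 with a median of 0.74, and the 2 that peak around dawn, Clk and cry, had 0.59 and 0.56. Both sets stood above wild type in controls, with the wild type control as the shared baseline. Under paraquat 4 of the 5 dusk genes were higher in the mutant (median 0.05), while Clk and cry differed by −0.13 and −0.15. In controls vri was at 2.03-fold (1.91 to 2.16) the wild type level, and 89.8% of genes tested had a difference below its own. The median of the 9 was 0.56, beside −0.19 over all genes. Median-ratio scaling moved the median gene by 0.19, after which 766 genes were called higher and 260 lower, against 548 and 481 as reported, and the difference of to, at −0.18 as reported, took a positive sign with upper-quartile scaling (0.01). With wild type paraquat flies in place of wild type controls, cyc differed by −0.32 and 0 of the 9 genes were called.

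Under paraquat the genotypes were closer. Of the 9 genes 0 were called, where 2.30% of 8487 genes were called higher and 2.70% lower. The mutant had more RPKM for 4 of the 9 and for 59.5% of genes tested. vri stood at 5.17 RPKM in mutant and 4.10 RPKM in wild type flies (1.26-fold, 1.20 to 1.33) and cwo at 13.5 and 10.9 RPKM. Pdp1 was at 12.3 RPKM in mutant and 15.4 RPKM in wild type flies, a difference of −0.30. per and tim differed by 0.05 and 0.03 with intervals of the fold that held 1, and both took a negative sign with median-ratio scaling, tim with upper-quartile scaling too. The median of the 9 was −0.12, beside 0.08 over all genes.

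**Figure D2:**
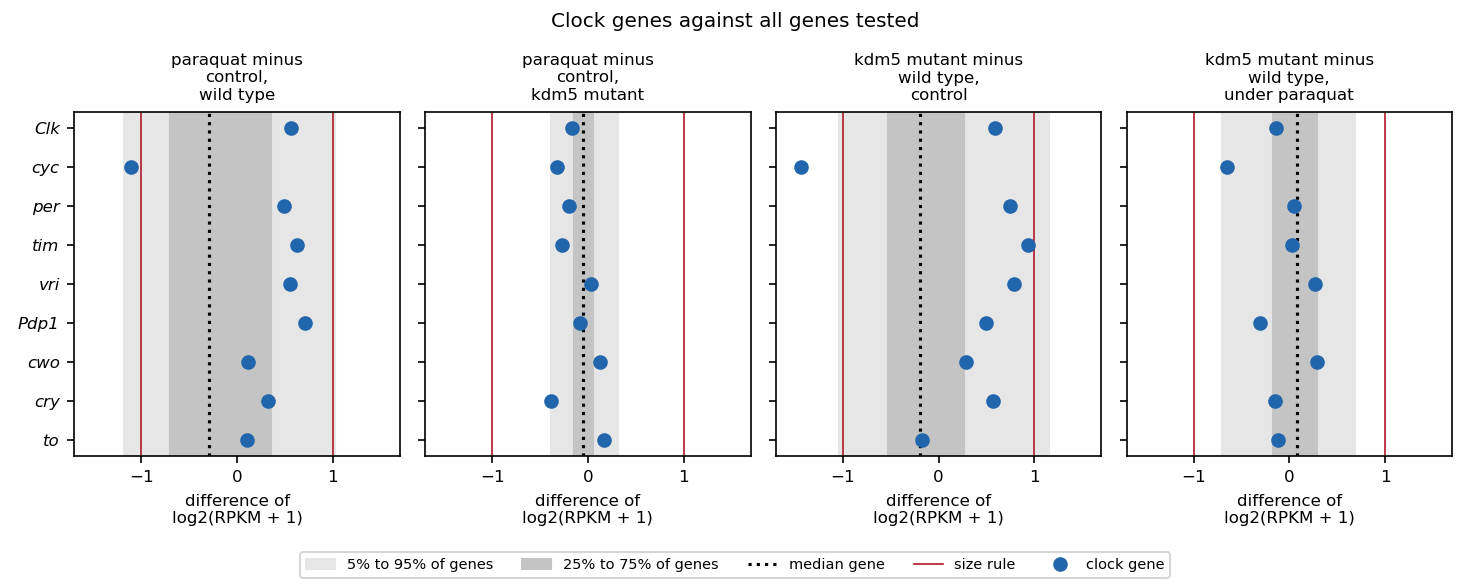
Difference of log2(RPKM + 1) (horizontal axes) of each clock gene (points, rows) in the 4 comparisons (panels), over the 25% to 75% and 5% to 95% ranges of all genes tested (grey bands), the median gene (dotted) and the size rule at 1 and −1 (red lines). cyc lies beyond the rule in both panels that use the wild type control, at −1.11 and −1.44.

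The difference of the paraquat responses, mutant minus wild type, was past the rule for 0 of the 9 genes, where 8.36% of 8611 genes were called higher and 6.18% lower. It was −0.90 for tim, −0.80 for Pdp1, −0.73 for Clk, −0.71 for cry, −0.69 for per and −0.52 for vri, each with a counting interval of the ratio of folds below 1. For tim that ratio was 0.514 (0.490 to 0.539). cyc had 0.79, and cwo and to had 0.01 and 0.06 with intervals that held 1. The count of 0 depends on scaling, since tim and Pdp1 passed the rule at −1.17 and −1.06 with median-ratio scaling. That scaling also turned the sign for cwo (−0.26) and to (−0.19), and gave 218 genes called higher and 972 lower, against 720 and 532 as reported.

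Levels of different genes were set side by side per exon base, because the deposited RPKM divides by the whole gene span. For 6 of the 9 genes the deposited length equals the BDGP6 span, introns included, and exons make up from 21.3% of the span for vri to 84.2% for to. On reads per kilobase of summed exons per 1e6 reads, the highest values in mutant controls were Pdp1 at 59.6, tim at 45.9, cwo at 30.3 and vri at 23.3, and the lowest were to at 6.43, Clk at 6.31 and per at 5.79. The wild type control order began instead with cyc at 44.4, Pdp1 at 41.0, cwo at 24.5 and tim at 23.1. These values divide all reads of a gene by its exon bases, so any intron reads raise them, and Pdp1 and cwo were covered well beyond their exons. On deposited RPKM tim stood above Pdp1 in mutant controls, at 22.8 against 13.0. In the deposited values vri ranked 7 of 9 in every library, and per exon base it ranked 4 or 5.

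Partner genes kept their proportions to unequal degrees. The ratio of per to tim per exon base was 0.129 and 0.126 in mutant flies with and without paraquat, and 0.125 and 0.122 in wild type flies with and without paraquat, a spread of 1.05-fold with all 4 counting intervals overlapping. The ratio of Clk to cyc was 0.437 and 0.405 in mutant flies and 0.308 and 0.0733 in wild type flies, a spread of 5.97-fold. The ratio of vri, the Clk repressor, to Pdp1 was 0.428 and 0.391 in mutant flies and 0.271 and 0.281 in wild type flies, so both mutant libraries lay above both wild type libraries. These ratios do not depend on how libraries are scaled, but they count any intron reads too.

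**Figure D3:**
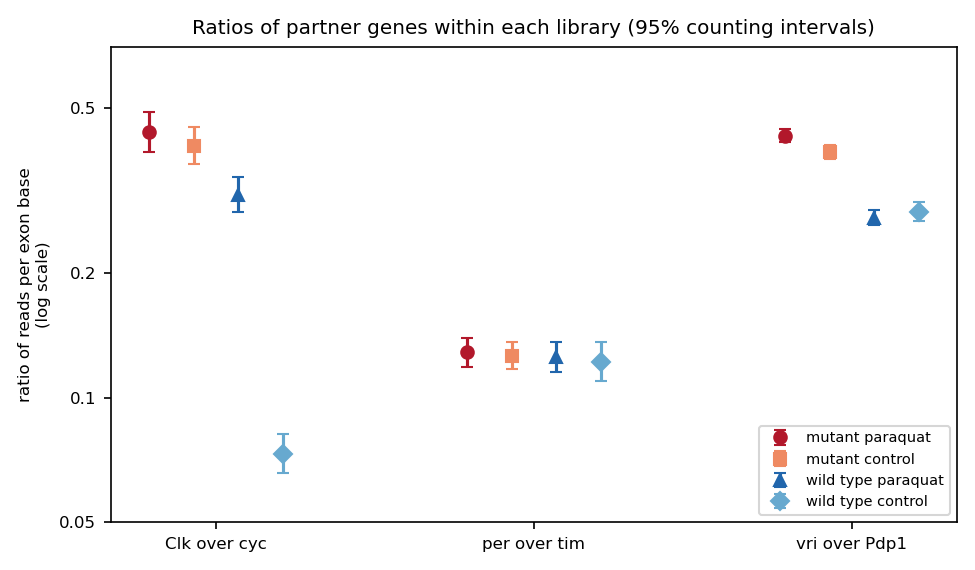
Ratio of reads per exon base of Clk over cyc, per over tim and vri over Pdp1 (vertical axis, log scale) in the 4 libraries (points, mutant paraquat, mutant control, wild type paraquat and wild type control from left to right), with 95% counting intervals. The per over tim points lie between 0.122 and 0.129, and the Clk over cyc point of the wild type control lies at 0.0733.

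Reads covered more of some genes than their annotated exons. For cwo 92.5% to 97.0% of the gene length was covered, where exons make up 40.8%, and for Pdp1 it was 65.4% to 75.2%, where exons make up 21.7%. Clk was covered over 52.6% to 64.3% of its length with exons at 36.5%, while per and to were covered to about their exon share, at 59.8% to 67.6% and 81.9% to 89.3% with exons at 62.9% and 84.2%. In 7 of the 9 genes coverage exceeded the exon share in every library. The share of all genes with such coverage is not given here, so it cannot be called a trait of clock genes. The exons are from BDGP6, a later build than the dm3 of the deposited data. Covered length also depends on the number of reads, and the tables give no split of reads into exons and introns.

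**Figure D4:**
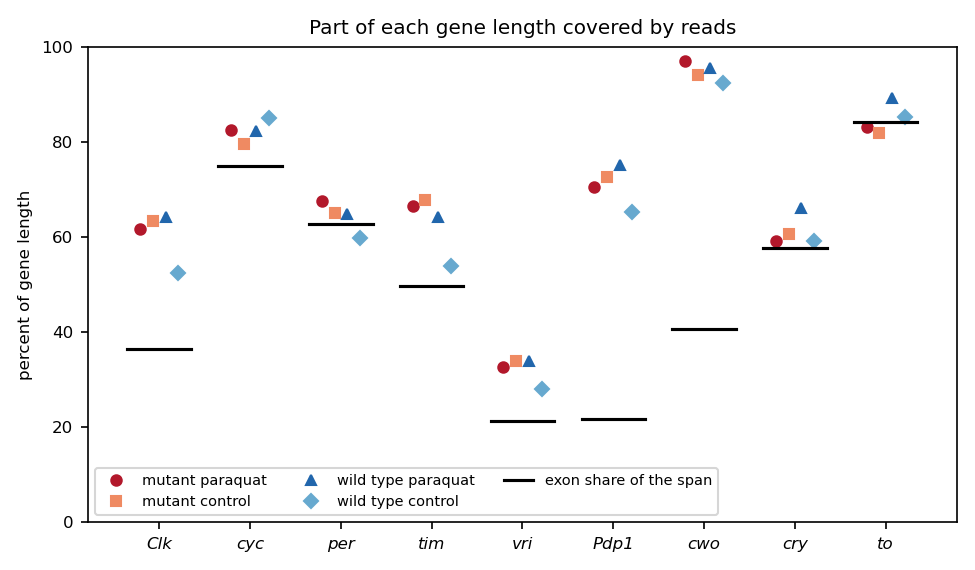
Percent of the deposited gene length covered by reads (vertical axis) for each clock gene in the 4 libraries (points), with the share of the span that is annotated exon (black line). cwo and Pdp1 points lie far above the line, and those of per and to around it.

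Markers of ovary and muscle also differed between these libraries. Of all genes tested, 5.21% were called higher and 10.4% lower with paraquat in wild type, and 6.55% and 5.75% in mutant against wild type controls, with medians of −0.29 and −0.19. Of 14 ovary and eggshell markers 12 were listed, with 9 called lower and 0 higher with paraquat in wild type (median −1.46) and 6 lower and 0 higher in mutant against wild type controls (median −1.01). Their summed RPKM was 1907 and 2929 in mutant flies with and without paraquat, and 2138 and 6868 in wild type flies with and without paraquat, and none of these or of the following markers was at 0 reads. The 10 listed muscle markers summed to 4422 and 4911 in mutant flies and 6058 and 1814 in wild type flies, and 8 of the 10 were called higher with paraquat in wild type and 5 of the 10 in mutant against wild type controls. The 6 neuron markers summed to 51.5 and 51.4 in mutant flies and 74.4 and 38.6 in wild type flies, and the 10 photoreceptor markers to 760 and 758 in mutant flies and 884 and 668 in wild type flies, with 0 of either list called in the 4 comparisons. Of the 9 fat body markers 3 were called higher and 2 lower with paraquat in wild type, and 3 higher and 0 lower in mutant against wild type controls. The part of these tissues in the clock gene differences was not tested. In whole flies fewer cells of a type and less RNA per cell cannot be told apart.

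The genes most like cyc over the 4 libraries, by root mean square distance of centred log2(RPKM + 1) among 6794 other genes with at least 5 RPKM, were CG14229, phr and BicC, at distances of 0.02, 0.04 and 0.05 beside a median of 0.58 over all those genes. phr encodes a photolyase, which repairs ultraviolet damage in DNA, and BicC an RNA-binding protein of oogenesis. BicC had 53.9 and 65.0 RPKM in mutant flies with and without paraquat, and 78.1 and 186 RPKM in wild type flies with and without paraquat. Among the clock genes themselves the closest pair was per and tim, at 0.07.

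Of 15 listed kinases, phosphatases and ubiquitin ligase genes that act on the clock proteins 0 were called in any of the 4 comparisons. Over all genes tested, 5.21% were called higher and 10.4% lower with paraquat in wild type, and 0.712% and 0.603% in the mutant. Between the genotypes 6.55% were higher and 5.75% lower in controls, and 2.30% and 2.70% under paraquat. Whether a count of 0 among 15 differs from these shares was not tested. dco, the kinase doubletime that marks PER for decay, had 38.7 and 38.5 RPKM in mutant flies with and without paraquat, and 34.9 and 69.5 RPKM in wild type flies with and without paraquat. Cul1, the scaffold of a ubiquitin ligase, had 56.8 and 63.1 RPKM in mutant flies and 55.7 and 111 RPKM in wild type flies. With paraquat in wild type Cul1 and dco differed by −0.98 and −0.97, just inside the rule. CkIIalpha, a kinase of PER and TIM, and ctrip, a ubiquitin ligase for CLK, did not pass the rule and differed there by −0.71 and −0.65. For these 4 genes, named for the size of their differences, the wild type control was highest, as for 52.5% of all genes. The median of the list was −0.37 with paraquat in wild type, beside −0.29 over all genes, and −0.35 in mutant against wild type controls, beside −0.19.

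Transcription cofactors linked to the clock had 12 members at 1 RPKM. In mutant against wild type controls, where 5.75% of all genes were called lower and 6.55% higher, 3 were called lower and 0 higher: Kdm5 itself (−3.86), the histone deacetylase HDAC1 at 27.5 against 58.7 RPKM, and not, a histone H2B deubiquitinase, at 6.77 against 16.0 RPKM. Kdm5 is the mutated gene, so its call between genotypes is no result about the cofactors. HDAC1 and not were also called lower with paraquat in wild type (−1.31 and −1.08), as were 10.4% of all genes. Under paraquat Kdm5 alone was called between genotypes, where 2.70% of all genes were called lower and 2.30% higher. kay, the fly Fos, differed by 0.99 with paraquat in wild type and by 0.92 between control flies, just inside the rule. Of 6 RNA and translation factors and sleep-linked genes 1 was called. It was qvr (sleepless), a membrane protein that promotes sleep, which was higher with paraquat in wild type, at 20.2 against 8.70 RPKM (2.32-fold, 2.21 to 2.44), where 5.21% of all genes were called higher. tyf, lark and Nf1 of that list differed there by −0.70, −0.66 and −0.20.

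Outputs of clock neurons were listed at low levels. Of 19 listed genes for neuropeptides, their receptors and ion channels 0 were called in the 4 comparisons, and 13 reached 1 RPKM in either wild type library. Over all genes 0.603% to 10.4% were called per direction and comparison. A count of 0 says little here, because adding 1 RPKM shrinks differences at these low levels. Genes under 1 RPKM in both libraries of a comparison could not be called. Over the 13 listed genes at 1 RPKM the median difference was 0.44 with paraquat in wild type, beside −0.29 over all genes. In mutant against wild type flies under paraquat it was −0.35 over the 12 at 1 RPKM, beside 0.08. In the same comparisons the neuron markers had medians of 0.81 and −0.53, and the photoreceptor markers 0.44 and −0.26. The ion channel gene Sh had 2.33 and 2.23 RPKM in mutant flies with and without paraquat, and 4.14 and 2.13 RPKM in wild type flies with and without paraquat. unc79 and unc80, subunits of the channel complex of narrow abdomen, and the neuropeptide gene SIFa differed with paraquat in wild type by 0.62, 0.55 and 0.55. Pdf, the main neuropeptide of clock neurons and chosen here after its values were seen, had 70 and 64 reads in mutant flies and 109 and 75 reads in wild type flies with and without paraquat.

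Of 9 listed genes that cycle in fly heads 3 passed the rule in 1 or more of the 4 comparisons. By comparison, 0 were called with paraquat in wild type, where 5.21% of all genes were called higher and 10.4% lower, and 1 was lower with paraquat in the mutant, where 0.603% were. In the mutant against wild type 2 were higher in controls (6.55% of all genes), and 1 was higher and 1 lower under paraquat (2.30% and 2.70%). Cyp4d21, a cytochrome P450 linked to mating and metabolism, had 1.52 and 4.47 RPKM in mutant flies with and without paraquat, and 0.230 and 1.07 RPKM in wild type flies with and without paraquat, the third value from 14 reads. It was called lower with paraquat in the mutant (2.94-fold, 2.32 to 3.76) and higher in the mutant in both conditions. Ugt35B1, a UDP-glycosyltransferase, was called higher in mutant controls at 15.4 RPKM against 6.79 RPKM in wild type controls (2.27-fold, 1.99 to 2.59). CG10513 was called lower in the mutant under paraquat at 17.3 RPKM against 43.6 RPKM in wild type, and Cyp18a1, which breaks down ecdysone, differed by 0.78 there.

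The takeout family, secreted proteins related to carriers of juvenile hormone, included members that passed the rule, which to itself did not. Of 19 listed members, to included, 3 of the 16 at 1 RPKM were called higher and 0 lower with paraquat in wild type (5.21% and 10.4% of all genes), and 4 of 14 higher and 0 lower in mutant against wild type controls (6.55% and 5.75% of all genes). dyw (daywake; FBgn0000092; chromosome X, 2692732 to 2693886, minus strand) lies tail to tail with per, is named for its effect on daytime sleep, and shares 49 exon bases with per on the opposite strand. dyw had 5.60 and 10.0 RPKM in mutant flies with and without paraquat, and 13.5 and 1.83 RPKM in wild type flies with and without paraquat. It was 7.37-fold higher (5.61 to 9.84) with paraquat in wild type, 5.47-fold higher (4.14 to 7.35) in mutant than in wild type controls, and lower in mutant than in wild type flies under paraquat (difference −1.13). Whether counting used strand is not given in the sources used here, so reads in the shared bases cannot be assigned to dyw or per.

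Other takeout relatives followed different orders. Jhbp7 was called higher in both comparisons with the wild type control, with 11.0 and 12.8 RPKM in mutant flies with and without paraquat, and 7.85 and 2.76 RPKM in wild type flies with and without paraquat. CG31189 was called higher with paraquat in wild type (1.13). CG31207 and Jhbp11, chosen here after their values were seen, complete with dyw and Jhbp7 the 4 called higher in mutant against wild type controls, at 1.12 and 1.01. With paraquat in the mutant 1 of 15 family members at 1 RPKM was called lower and 0 higher (0.603% and 0.712% of all genes). Under paraquat 2 of 16, dyw and Jhbp5, were lower in the mutant and 0 higher (2.70% and 2.30% of all genes). Jhbp5 was called lower with paraquat in the mutant, at 5.22 against 23.9 RPKM (4.57-fold, 3.93 to 5.34). Its difference between mutant and wild type flies under paraquat was −1.56. It shares 86 exon bases with its relative Jhbp4.

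**Figure D5:**
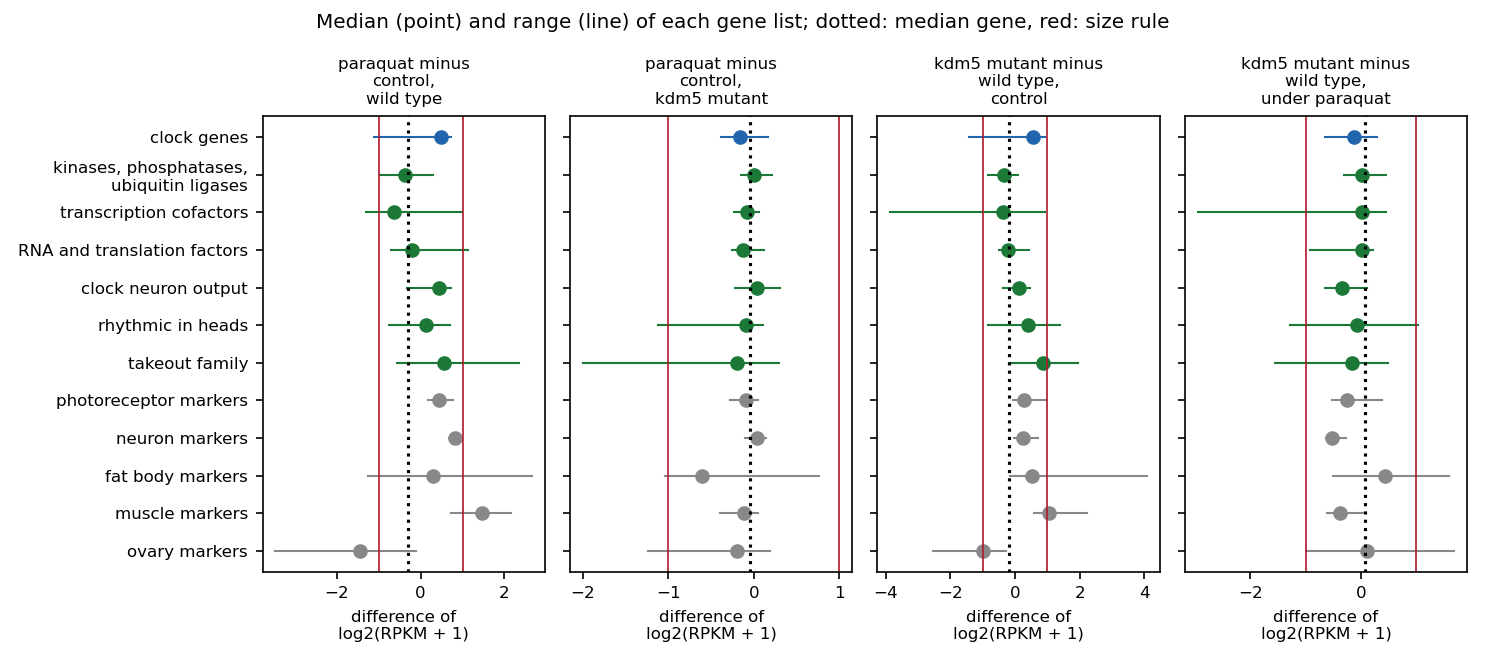
Median (points) and range (lines) of the difference of log2(RPKM + 1) (horizontal axes) of the clock genes, related lists (green) and tissue marker lists (grey) in the 4 comparisons (panels), with the median gene (dotted) and the size rule (red lines). With paraquat in wild type the clock genes have a median of 0.49, the kinase list −0.37 and the ovary markers −1.46.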

How the data were processed

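Poly-A RNA libraries were made with an Illumina TruSeq kit, per the labels' protocols. Build dm3 and Cufflinks are named in the submitters' processing notes, while the sources used here give no aligner, annotation release or strand use. Per the file headers, the deposited columns are read counts (uniquely mapped), gene length, percent coverage of that length, and RPKM. The deposited RPKM equals the count divided by length and header total within a relative gap of 5.13e-07. The deposited length lay within 5% of the whole gene span for 91.8% of 9205 genes with introns. A gene missing from a table was taken as 0 reads.

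The authors' RPKM entered unchanged. Differences of log2(RPKM + 1) were computed over all genes with Python 3.11.15, pandas 2.3.3 and scipy 1.17.1, and tested on simulated data. The 95% interval of a fold comes from an exact Clopper-Pearson interval on the read share, those of the ratio of folds are normal intervals from Poisson counts, and both cover counting error only. Positions and exons are from BDGP6, a later build than dm3, and symbols matched 11667 of 12073 identifiers. The clock genes and gene lists were chosen with earlier results of these data known. Genes named beyond the 9 are up to 4 per list by size of difference and the 3 nearest profiles of any clock gene past the rule; others are marked as chosen after their values were seen. Alternatives tried were a pseudocount of 0.1 or 5, a minimum of 5 RPKM or none, median-ratio and upper-quartile scaling over genes at 1 RPKM, totals without the mitochondrial large ribosomal RNA, summed exon length, other baseline libraries and, added after the data were seen, no division by length.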

Additional observations from a re-analysis of the deposited data

Results flagged for a closer look

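For 5 clock genes the paraquat difference was positive in wild type and negative in the mutant, with both counting intervals of the fold off 1. The share of all genes that meet this rule is not given here, so the count of 5 has no background beside it. On log2(RPKM + 1) the mutant minus wild type difference of responses was −0.73 for Clk, −0.69 for per, −0.90 for tim, −0.80 for Pdp1 and −0.71 for cry. With 1 library per group the difference was not tested against replicates, and all 5 had their lowest level in the wild type control.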

How the results depend on the processing

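No paired analysis was possible because each group has 1 library. Of the 9 clock genes, the count called lower with paraquat in wild type was 1 (cyc) and became 0 with a pseudocount of 5, with either scaling and with the mutant control as baseline, where the cyc difference reversed to 0.32 and 7 of 9 signs turned in all. The count called higher there was 0 and became 1 (Pdp1) with median-ratio scaling. In mutant against wild type controls the count higher was 0 and became 1 with either scaling (tim) and without division by length (vri), and the count lower was 1 (cyc) and became 0 with wild type paraquat flies as baseline. For the difference of responses the count lower was 0 and became 2 with either scaling (tim and Pdp1), and 1 with a pseudocount of 0.1 and without division by length (Clk). The median gene moved by 0.30 with paraquat in wild type under median-ratio scaling. The cause of the other changes was not tested. Clk and per rest on the fewest reads of the wild type control after to, at 411 and 357.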
